A study of Mus musculus with 15 samples.

Results

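The complement and coagulation genes are 41 genes listed by name for their place in the blood's complement and clotting systems, of 18217 genes that could be named on the arrays. The listing rule used no measured value, though the members were chosen with earlier results of these data known. Each gene was read from the probe that was brightest over all arrays. They were sorted by their textbook site of synthesis into 8 genes made outside hepatocytes, 6 made by hepatocytes and by other cells, and 27 made by hepatocytes, of which 11 belong to complement and 16 to coagulation. Expression was measured in 15 mouse samples on single-colour Agilent arrays, in 5 groups of 3. The heart allografts were taken on postoperative day 5 (POD5) and came from B10 (H-2b) donors, placed with a blood supply in the abdomen of CBA (H-2k) recipients. The liver allografts were taken at POD5 and POD8 and came from B10.BR (H-2k) donors in B10.D2 (H-2d) recipients, and all mice were male. Heart and liver controls complete the groups. The labels call the controls normal tissue while other parts of the study call them isografts, and their strain and the animals' ages are not given in the sources used here, so that donor strain, surgery and rejection cannot be told apart. A graft is a mixture of donor cells and infiltrating recipient cells, and in such bulk samples fewer cells of a type and less RNA per cell cannot be told apart. The study's methods give 3 mice per time point, while the labels do not tie each array to an animal, and p-values measure the spread between these samples.

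Complement is a cascade of plasma proteins that starts on antibody through C1q, on sugars through the mannose-binding lectins and their proteases, or on any surface through factors B and D with properdin. All routes meet at C3 and end in the membrane attack complex, built from C5 (Hc in the mouse), C6, C8 and C9 among others. Coagulation is a chain of proteases that ends with thrombin cutting fibrinogen into fibrin, held in check by antithrombin, protein C and protein S, and fibrin is dissolved by plasmin. Hepatocytes secrete most of these proteins into the blood. C1q is the exception best known, since macrophages and dendritic cells make it, and C2, C3, C4 and factor B are also made in inflamed tissue. In transplantation, complement fragments left by antibody are a sign that pathologists read, and donor organs make complement of their own.

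Promoters of 31 of the 41 genes were found in a RefSeq table (assembly GRCm38.p6), 1 gene having a pair of them, which made 32. The 250 bases before the start of 4 of them are shown. Hc, Masp2 and C8a were among the genes with lower signals in the liver allografts described further on, and their promoters held a searched motif. The promoters of C6, C8g, Mbl1, F7 and F12, which were also lower there, held no searched motif and are not shown. The fibrinogen chain Fga held the most motifs of those searched. Capitals mark a match on either strand to TTCNNNGAA (GAS, bound by STAT factors) in Masp2, C8a and Fga, to the first letters of the HNF1 site, GTTAATNAT, in Hc and Fga, and to TTGCNNAA (C/EBP) in Fga.
Hc, chr2:35061413-35061662, minus strand: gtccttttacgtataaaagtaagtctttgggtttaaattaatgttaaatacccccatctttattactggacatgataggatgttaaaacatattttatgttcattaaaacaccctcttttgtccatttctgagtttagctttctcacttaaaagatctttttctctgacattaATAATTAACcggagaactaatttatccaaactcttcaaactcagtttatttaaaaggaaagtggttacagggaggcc
Masp2, chr4:148602294-148602543, plus strand: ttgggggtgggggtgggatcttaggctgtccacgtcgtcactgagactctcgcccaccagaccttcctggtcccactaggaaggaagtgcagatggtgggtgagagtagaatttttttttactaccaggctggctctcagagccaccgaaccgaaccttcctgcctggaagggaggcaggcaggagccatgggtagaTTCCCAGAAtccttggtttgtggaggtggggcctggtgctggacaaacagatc
C8a, chr4:104876399-104876648, minus strand: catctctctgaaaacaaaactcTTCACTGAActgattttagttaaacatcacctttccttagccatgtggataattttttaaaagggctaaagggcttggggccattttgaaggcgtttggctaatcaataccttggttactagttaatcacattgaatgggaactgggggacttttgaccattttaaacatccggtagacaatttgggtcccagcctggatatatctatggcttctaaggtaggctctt
Fga, chr3:83025903-83026152, plus strand: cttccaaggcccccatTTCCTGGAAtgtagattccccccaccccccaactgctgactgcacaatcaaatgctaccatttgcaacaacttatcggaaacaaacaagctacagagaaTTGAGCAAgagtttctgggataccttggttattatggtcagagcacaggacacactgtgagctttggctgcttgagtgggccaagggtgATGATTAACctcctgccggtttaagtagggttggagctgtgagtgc
The HNF1 letters stood at -77 to -69 in Hc, at -46 to -38 in Fga and at -54 to -46 in F13b, counted back from the start, and in no other member promoter, while 0.737% of all 32851 promoters held them. GAS letters were found in 6 of the 32 member promoters (C8a, F9, Fga, Fgb, Masp2 and Pros1) and in 7.02% of all promoters, and C/EBP letters in 7 of 32 and in 9.56%. The interferon response core GAAANNGAA was found in C5ar1 and in 7.13% of all promoters. The HNF4 core CAAAGTCCA was found in no member and in 0.384% of all promoters. The matches in the promoters shown did not overlap each other, and a match describes the sequence, not a bound site.

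Signals are given as log2 of the scanner's processed signal after quantile normalization within each organ. The 75th percentile of the processed signal before normalization lay between 394 and 710.5 on the allograft and between 1021 and 1247 on the control heart arrays, and between 338 and 478 on the allograft and 92.1 and 226 on the control liver arrays. The heart allografts shared 1 slide and the heart controls a different one, which leaves the effects of slide and rejection in the heart as something that cannot be told apart. The tissues matched their labels, with all 10 hepatocyte markers well above background on every liver array and 5 or 6 of 10 on each heart array, and all 7 cardiomyocyte markers lower in control liver than in control heart by 8.37 or more on the log2 scale. The first liver control stood apart by low signals of macrophage genes, with a summed signal of 7246 over 9 markers against 14330 and 14480 in the other controls and 37890 to 48010 in the liver allografts. This array was also the dimmest of all, with the 75th percentile of 92.1 and the lowest share of probes well above background (52.5%). Whether its weak signal bears on its low macrophage values was not tested. Differences are called at a Benjamini-Hochberg adjusted p under 0.05 over all probes with limma, a linear model that sets each difference against the replicate spread.

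In the controls, the liver stood far above the heart for every hepatocyte-made gene that could be compared. Of 39 members tested, 32 were higher in liver and 6 were lower, where 26.4% of all probes tested were called higher and 27.5% lower. The 26 hepatocyte-made genes tested were all higher. In 16 of them, above background on at least 1 control heart, the difference was 5.47 to 14.71 on the log2 scale, and the other 10, above background on none, were at least 571-fold to at least 13800-fold higher. Also higher were all 6 genes of mixed source, by 1.02 to 5.95. In the same comparison 6 of the 7 genes made outside hepatocytes were lower in liver, and Cfp (properdin) was not called. Mbl2, a mannose-binding lectin, had 16.34, 16.29 and 16.03 in the control livers and was not well above background in any control heart, at least 13800-fold higher in liver. On the same basis Plg (plasminogen) was at least 11300-fold and Fga at least 10400-fold higher. Fgb, another fibrinogen chain, had 17.82, 18.21 and 17.87 in liver and 2.9, 3.72 and 3.15 in heart, and Serpinc1 (antithrombin), well above background on only 1 of the control heart arrays, differed by 13.98 ± 0.22 (log2, SE). At the other end stood the anaphylatoxin receptors and C1q. C3ar1 had 7.81, 7.13 and 7.26 in heart and 1.81, 5.22 and 5.59 in liver, the first control liver being below background. C5ar1 was at 4.31, 4.37 and 4.05 in heart and not well above background in liver, so that its difference has no measured size. That difference ranged from -3.01 to -0.38 over 13 other settings and was called in all 13. C1qa, C1qb and C1qc fell by 2.19, 2.23 and 2.02 from heart to liver, with no overlap of the groups. In the wider lists, C4bp, Serpinf2 and Pzp were the highest in liver (13.47, 12.88 and 12.85) while F13a1 and Itgam were lower there (-6.47 and -4.93). Levels set across organs rest on normalizing organs of very different composition together.

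In the heart allografts, Cfb, C2, C4b, C1qa, C1qc and Serping1 rose and Cfi, Cd55, Pros1 and C8g fell, beside Fga, Fgg and Kng1, which were called on signals near background. Of 39 members tested (Cfd and F2 lacked a value on a control array), 7 rose and 6 fell, against 15.4% of all probes called higher and 16.1% lower, so that the share of members called was close to that of all probes. Their median log2 difference was 0.29, and 0.02 over all probes. With scaling to the 75th percentile in place of quantile normalization, 18 rose and 6 fell, and the median over all probes moved to 0.47. Of the 41025 probes tested, 15727 were then called higher and 5469 lower, in place of 6317 and 6587. The rises were largest among the 6 genes of mixed source, of which 4 rose and 1 fell. The genes made outside hepatocytes gave 2 higher and 1 lower of 7, hepatocyte-made complement 0 and 2 of 11, and hepatocyte-made coagulation 1 and 2 of 15.

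Cfb, factor B of the alternative pathway, had 15.74, 15.44 and 16.34 in the allografts and 12.7, 11.86 and 12.33 in the controls. Every allograft lay above every control, an 11.6-fold difference (log2 3.54 ± 0.32 SE, adjusted p = 0.00205). C2, the protease partner of C4, had 13.28, 13.29 and 13.74 against 11.58, 10.66 and 11.41. The groups did not overlap, and the difference was 4.66-fold (adjusted p = 0.00521). C4b had 11.18, 10.72 and 11.64 against 9.96, 9.81 and 10.1, a 2.34-fold rise (adjusted p = 0.0194). Its probe may also read the close copy C4a, which makes this gene's value uncertain, and its call was lost without the first allograft (adjusted p = 0.0547) or any 1 of the controls (0.0575 to 0.0672). C3, where the routes meet, was high in both groups, at 17.15, 16.31 and 17.31 against 16.77, 16.09 and 16.21. The groups overlapped on this probe (log2 0.56 ± 0.33, adjusted p = 0.256), while a dimmer second probe of C3 was called higher (1.43 ± 0.19, adjusted p = 0.00572).

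The 3 chains of C1q, the antibody sensor, lay slightly higher in every allograft. C1qa had 14.94, 15.35 and 15 in the allografts and 14.55, 14.12 and 14.45 in the controls (1.65-fold, adjusted p = 0.031). C1qc had 15.73, 16.01 and 15.81 against 15.42, 14.94 and 15.31 (1.55-fold, adjusted p = 0.0376). C1qb had 14.58, 15.01 and 14.61 against 14.45, 13.92 and 14.38 and was not called (1.4-fold, adjusted p = 0.132). In none of the 3 genes did the groups overlap, but the call of C1qc was lost without any 1 of the 6 arrays (adjusted p 0.0579 to 0.0947), and that of C1qa without the third allograft (0.0724) or any 1 of the controls (0.0589 to 0.0825). The summed signal of 9 macrophage and monocyte markers was 258300 to 306800 in the allografts and 107700 to 142300 in the controls, while the mean log2 signal of the same markers overlapped, at 12.93 to 13.1 against 12.71 to 13.12. In this list 3 of the 9 were called higher (Ly6c2, Fcgr1 and Aif1), and 1, the scavenger receptor Cd163, was lower by 4.45 on the log2 scale. Its part in the C1q difference was not tested.

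Among regulators, Cfi, factor I, which cuts C3b and C4b, had 6.77, 8.37 and 7 in the allografts and 9.88, 10.09 and 10.06 in the controls. All allografts were lower, and Cfi fell by 2.63 ± 0.44 (log2, SE, adjusted p = 0.0109). Cd55, decay-accelerating factor on cell surfaces, had 8.4, 9.16 and 8.27 against 9.92, 9.54 and 10.48. It fell by 1.37 ± 0.35 without overlap (adjusted p = 0.0357), a call lost without the first or the third allograft (adjusted p = 0.0967 and 0.102) and without the first or the third control (0.0979 and 0.0948). Pros1, protein S, fell by 0.83 ± 0.11 (adjusted p = 0.00508), with 10.88, 10.94 and 10.99 against 11.89, 11.61 and 11.8. Its second probe was not called (-0.32, adjusted p = 0.124). Serping1, the C1 inhibitor, moved the other way, 1.3-fold higher with no overlap (adjusted p = 0.0416), and was not called without the second or the third allograft (adjusted p = 0.0534 and 0.13) or any 1 of the controls (0.0651 to 0.131). In the same hearts, endothelial markers were lower in 5 of 5, fibroblast markers in 4 of 5 and platelet markers in 6 of 6, and their part in these differences was not tested. Of the other lists, T cell markers were higher in 6 of 6, cardiomyocyte markers lower in 3 of 7, Kupffer cell markers lower in 2 of 5, adipocyte markers lower in 1 of 6, and neutrophil markers higher in 1 and lower in 2 of 5.

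Of the 27 hepatocyte-made genes, 15 were well above background on every control heart, 7 on every allograft and 10 on none of the 6 arrays. Apart from that of Cfi, given above, the calls in this class rest on dim signals. Fgg, the gamma chain of fibrinogen, had 4.3, 5.37 and 4.5 in the controls and was not well above background in any allograft, so that it was at least 1.33-fold lower (adjusted p = 0.00221). Kng1, kininogen, was at least 1.11-fold lower on its brightest probe (adjusted p = 0.00439), while its second probe differed by 0.54 in the other direction and was not called. C8g, with 4.08, 5.64 and 4.45 in the allografts against 6.41, 6.49 and 6.36, fell by 1.7 ± 0.42 (adjusted p = 0.0324), a call lost without the first or the third allograft (adjusted p = 0.0656 and 0.0956) or any 1 of the controls (0.0944 to 0.0971). Under a different background correction (normexp) the differences of Fgg, Kng1 and C8g shrank to -0.5, -0.34 and -0.64, and Kng1 was no longer called (adjusted p = 0.0597). Fga was called higher with both groups below background, so no fold is given. F10, factor X, was bright in comparison, with 11.46, 12.7 and 12.26 in the allografts and 10.39, 8.56 and 10.78 in the controls. It was higher in every allograft by 2.23 ± 0.68 and narrowly missed the threshold (adjusted p = 0.0594). The summed signal of the 10 hepatocyte markers ranged from 875.5 to 1712 in the allografts and from 1487 to 11570 in the controls, and its part in the calls of dim members was not tested.

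**Figure D1:**
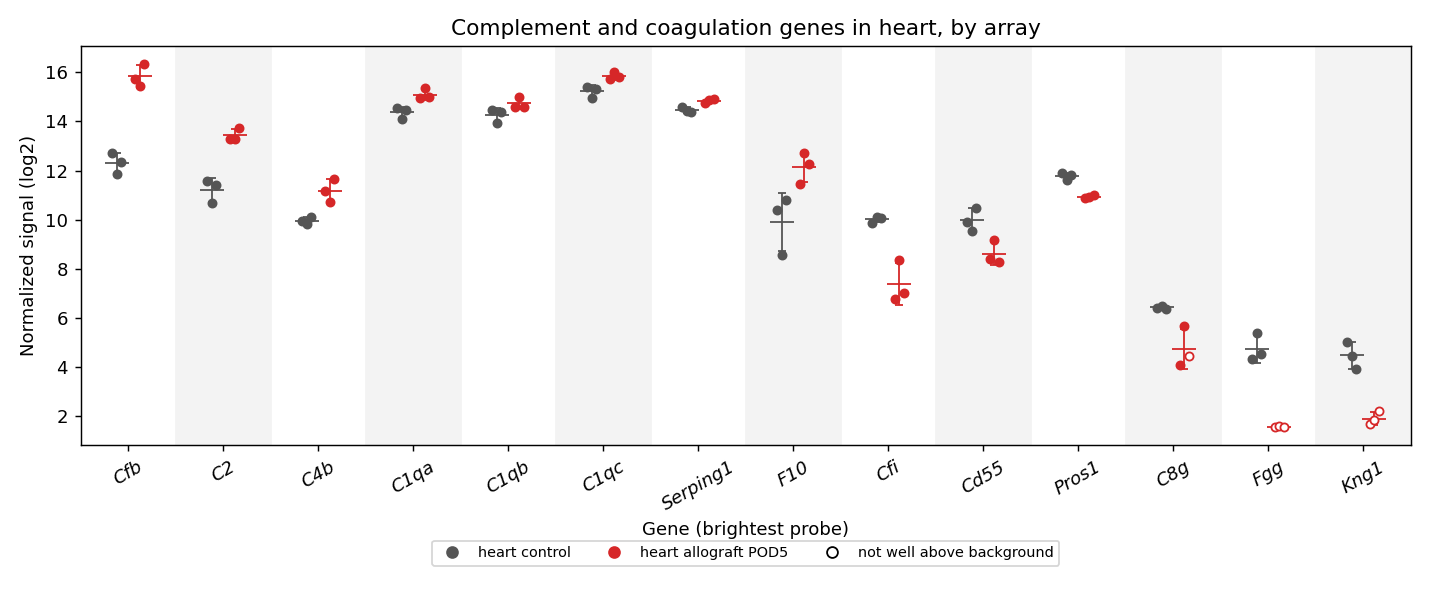
Normalized signal (log2) of 14 members on each of the 6 heart arrays, controls in grey and POD5 allografts in red, with the mean and SD of each group of 3. Open points were not well above background. The allografts lie above the controls from Cfb to F10 and below them from Cfi to Kng1.

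A wider list of complement genes that are no members had 5 genes higher and 8 lower of 24 tested in the heart, and the wider coagulation list 4 higher and 6 lower of 27. The largest rises were in Procr, the endothelial protein C receptor (2.94 ± 0.38, adjusted p = 0.00496), Itgax, a chain of complement receptor 4 (2.07, adjusted p = 0.0279), and Itgb2 and C1rl (both 1.96). The largest falls were in Vsig4, a complement receptor of resident macrophages (-4.63 ± 0.57, adjusted p = 0.00459), F13a1, the A subunit of factor XIII (-3.41 ± 0.14, adjusted p = 0.000567), and Cfhr2, a relative of factor H (-3.02, adjusted p = 0.00175).

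In the liver allografts at POD5, 6 of 11 hepatocyte-made complement genes were lower than in the controls (Masp2, Mbl1, C6, C8a, C8g and Hc). Of 41 members, 1 rose and 10 fell, against 5.74% of all probes called higher and 4.16% lower. The median log2 difference of the members was -0.21, and -0.07 over all probes. With scaling to the 75th percentile 0 rose and 18 fell, and the median over all probes moved to -0.38. Of the 41155 probes tested, 2690 were then called higher and 8404 lower, in place of 2364 and 1712. The 1 rise, in C5ar1, had no array above background. The other falls were 3 of 16 genes of hepatocyte-made coagulation and C4b. The median was -0.84 for hepatocyte-made complement and -0.4 for hepatocyte-made coagulation. Counting the uncalled, 24 of the 27 hepatocyte-made genes had a mean below the controls. The hepatocyte marker list had 0 of 10 called in either direction with limma. Unadjusted, 1 had a p under 0.05, as had 10884 of 41155 probes. The median of the list was 0.06, and its summed signal was 851800 to 891500 in the allografts and 855900 to 863700 in the controls. Quantile normalization gives the brightest probes much the same values on every array, so that these sums say little about the amount of hepatocyte RNA.

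Masp2, the protease that mannose-binding lectins carry, had 12.33, 12.61 and 12.28 in the POD5 allografts and 13.62, 13.61 and 13.34 in the controls. It fell by 1.12 ± 0.14 without overlap (adjusted p = 0.00434), and 1 of its other 2 probes was also called (-1.13). Mbl1, a mannose-binding lectin, had 12.42, 12.6 and 12.38 against 12.98, 13.65 and 13.56 and fell by 0.93 ± 0.2 (adjusted p = 0.0282). Mbl2, the second lectin, and Masp1, another of its proteases, overlapped their controls and were not called (-0.2 and -0.34, adjusted p = 0.535 and 0.176).

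The terminal genes moved in the same direction. C6 had 10.92, 10.78 and 9.68 in the POD5 allografts and 11.52, 11.88 and 12.47 in the controls, all allografts lower (-1.5 ± 0.37, adjusted p = 0.0443). C8a had 13.62, 13.8 and 13.86 against 14.79, 14.52 and 15.14, with no overlap (-1.06 ± 0.17, adjusted p = 0.0108). C8g had 13.28, 13.6 and 13.93 against 14.86, 14.55 and 14.4, again with no overlap (-1 ± 0.19, adjusted p = 0.0196). Hc, complement C5, showed the tightest replicates of these, with 15.85, 15.92 and 16.01 against 16.53, 16.53 and 16.58. It fell by 0.62 ± 0.1 (adjusted p = 0.0111). C9 lay lower in every allograft and was not called (-0.84 ± 0.23, adjusted p = 0.066), and C8b overlapped its controls (-0.6, adjusted p = 0.335). The regulator Cfi, which fell in the heart, overlapped its controls in the liver (-0.12, adjusted p = 0.787).

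In coagulation, F7 (factor VII, the partner of tissue factor) fell by 0.77 ± 0.15, F12 (factor XII) by 0.6 ± 0.1 and Proc (protein C) by 0.54 ± 0.1, with adjusted p-values of 0.019, 0.0106 and 0.0137 and no overlap in any of them. The 3 fibrinogen chains were not called, with log2 differences of -0.56 for Fga, 0.07 for Fgb and -0.06 for Fgg. Neither were F2 (prothrombin, -0.08), Serpinc1 (0.09) and C3 (0.09). These values near 0 depended on the scaling, for with the 75th percentile Fgb, Fgg, F2 and C3 were called lower, at -1.09, -1.16, -0.93 and -1.13. Plg was not called on its brightest probe (-0.56, adjusted p = 0.0874) and was on its second (-0.62, adjusted p = 0.0268).

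The slides of the liver arrays bear on these counts, since 2 of the POD5 allografts shared a slide that held no control, and the third lay with the heart allografts, so that no within-slide value exists. With slide as a random block, 6 members were called instead of 11, and these were C5ar1, C8a, Hc, Masp2, F12 and Proc, all among the 11. C6 and C8g then had adjusted p-values of 0.0661 and 0.0574. Only 6 members were called without the first POD5 allograft and 7 without the second.

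C4b had the largest called difference of the members in the liver, with controls that lay far apart. The POD5 allografts had 11.53, 12.14 and 11.52 and the controls 15.17, 13.01 and 15.85, the second control lying more than 2 log2 units below the other controls. C4b fell by 2.95 ± 0.66 at POD5 (7.7-fold, adjusted p = 0.0325), and at POD8, with 12.94, 12.81 and 12.36, it was lower by 1.97 ± 0.66 and not called (adjusted p = 0.122). The fall at POD5 was not called without the first control (adjusted p = 0.0839), without any 1 of the POD5 allografts (0.0655 to 0.106) or with slide as a random block (adjusted p = 0.0963). Without the second control it was -3.75 at POD5 and -2.78 at POD8, and both were called. C4b lies in the H-2 complex, and the amount of C4 is known to differ between H-2 haplotypes. The donor livers were H-2k, and with the strain of the controls unknown, haplotype and rejection cannot be told apart for this gene.

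The C1q chains were higher in every liver allograft than in every control, but the first control set most of the spread. C1qa had 12.38, 12.31 and 12.57 at POD5, 13.01, 13.02 and 12.54 at POD8, and 9.46, 12.03 and 11.6 in the controls. C1qb had 12.28, 11.92 and 11.9 at POD5, 12.59, 12.61 and 12.35 at POD8, and 9.69, 11.47 and 11.41 in the controls. C1qc had 13.61, 13.58 and 13.58 at POD5, 14.01, 14.04 and 13.9 at POD8, and 11.04, 12.67 and 12.67 in the controls. The 3 genes shared the low first control. At POD5 the differences of 1.39, 1.18 and 1.47 were not called (adjusted p = 0.192, 0.147 and 0.0651), and at POD8 only that of C1qc was (1.86 ± 0.41, 3.63-fold, adjusted p = 0.0349). C1qa and C1qb at POD8 differed by 1.82 and 1.66 (adjusted p = 0.116 and 0.067). Without the first control, the C1qc difference was smaller and was called at both times, 0.91 at POD5 (adjusted p = 0.0039) and 1.31 at POD8 (adjusted p = 0.00128), and C1qa and C1qb were called at POD8 (1.03 and 1.07). Without the third control C1qc was called at POD5 as well (1.73, adjusted p = 0.0419). The POD8 call of C1qc was lost without any 1 of the POD8 allografts (adjusted p 0.0848 to 0.121). Within the slide that held 2 POD8 allografts and 2 controls, C1qc differed by 2.23 (adjusted p = 0.212). Macrophage and monocyte markers moved with C1q, 4 of 9 being called higher and 1 lower at POD5, and 4 higher at POD8. Kupffer cell markers had 1 of 5 higher at each time, with a summed signal of 19530 in the first control, 46340 and 53320 in the others and 76400 to 115600 in the allografts. Their part in the C1q difference was not tested.

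The remaining genes made outside hepatocytes gave less in the liver. C5ar1, the receptor for C5a, was called higher at POD5 and POD8, but no liver array was well above background for it, so no fold is given, and under the normexp correction its differences were 0.09 and 0.12 and not called. Cd55 had 8.13, 8.56 and 7.81 at POD5 against 5.93, 7.66 and 7.47, higher in every allograft and not called (1.15 ± 0.44, adjusted p = 0.151). Cfp was higher in every allograft at both times and not called (0.9 and 1.08). Cfd, factor D, known as a product of fat cells, had 4.15, 6.35 and 2.84 at POD5, 3.28, 3.7 and 2.59 at POD8 and 6.79, 6.07 and 4.06 in the controls, and was not called (-1.2 and -2.45, SE 0.99 for both). Adipocyte markers had 1 of 6 higher at each time. Cfb and C2, the largest called rises of members in the heart, differed by 0.23 and 0.57 in the liver at POD5. They were not called there (adjusted p = 0.539 and 0.0722), with C2 higher in every allograft.

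**Figure D2:**
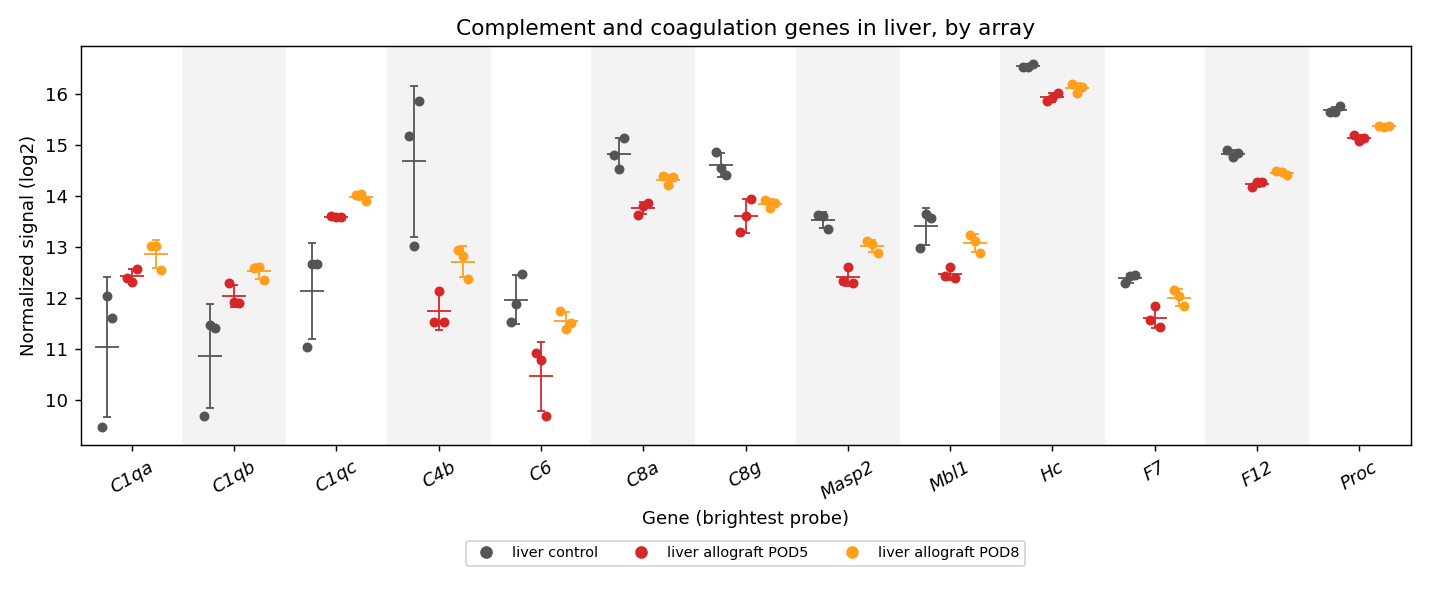
Normalized signal (log2) of 13 members on each of the 9 liver arrays, controls in grey, POD5 allografts in red and POD8 allografts in orange, with the mean and SD of each group of 3. From C6 to Proc the POD5 mean lies lowest and the POD8 mean between it and the control mean. In C8g and F7 the arrays of POD5 and POD8 overlap. The first control is the lowest point of C1qa, C1qb and C1qc.

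At POD8 the liver allografts lay closer to the controls for the hepatocyte-made genes. Of 41 members, 2 were called higher and 1 lower, against 5% of all probes called higher and 2.83% lower. With scaling to the 75th percentile 2 were higher and 13 lower, and the median over all probes moved to -0.46. Of the 41157 probes tested, 2525 were then called higher and 10979 lower, in place of 2058 and 1164. Both time points were set against the same controls. Of the POD8 allografts, 2 shared a slide with 2 of these controls, while no POD5 allograft shared a slide with a liver control. Time and slide can therefore not be told apart in the smaller differences at POD8. Hc had 16.19, 16.02 and 16.13 at POD8, below every control, and fell by 0.44 ± 0.1 (adjusted p = 0.0438). It was -0.44 as well within the slide that held both groups, with an adjusted p of 0.16 there. Hc was not called without any 1 of the 6 arrays (adjusted p 0.0722 to 0.156), and without any 1 of the POD8 allografts C5ar1 alone was called. The median difference of the 11 hepatocyte-made complement genes was -0.35, and that of the 16 coagulation genes 0.03, beside -0.08 over all probes. Masp2, C8a and C8g differed by -0.51, -0.5 and -0.76 with every allograft below every control, and were not called (adjusted p = 0.0769, 0.13 and 0.0572). With slide as a random block, 8 members were called, C1qb, C1qc and C5ar1 higher and C8g, Hc, Masp2, F12 and Proc lower.

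Set directly against POD5, the POD8 allografts differed in no member at the threshold with limma. An unadjusted p under 0.05 was found for 9 of 41 members and for 3251 of 41165 probes. Over all probes 0.00729% were called higher and 0% lower. In 19 of 41 members every array was higher at POD8 than any at POD5, and in 0 every array was lower, where 9.29% of all probes were higher and 10.4% lower in that sense. Of the 27 hepatocyte-made genes, 26 had a higher mean at POD8, with a median of 0.28 against 0 over all probes. With scaling to the 75th percentile it was again 26 of 27, with a median of 0.35 against -0.14. The largest were in C6 (1.08 ± 0.37, unadjusted p = 0.0204, adjusted p = 0.57) and C8b (1.01 ± 0.36, adjusted p = 0.577), each with all POD8 arrays above all POD5 arrays. Masp2 had the smallest p of the members (0.62 ± 0.14, unadjusted p = 0.00291, adjusted p = 0.42). POD5 and POD8 arrays shared no slide, so that slide and time cannot be told apart.

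**Figure D3:**
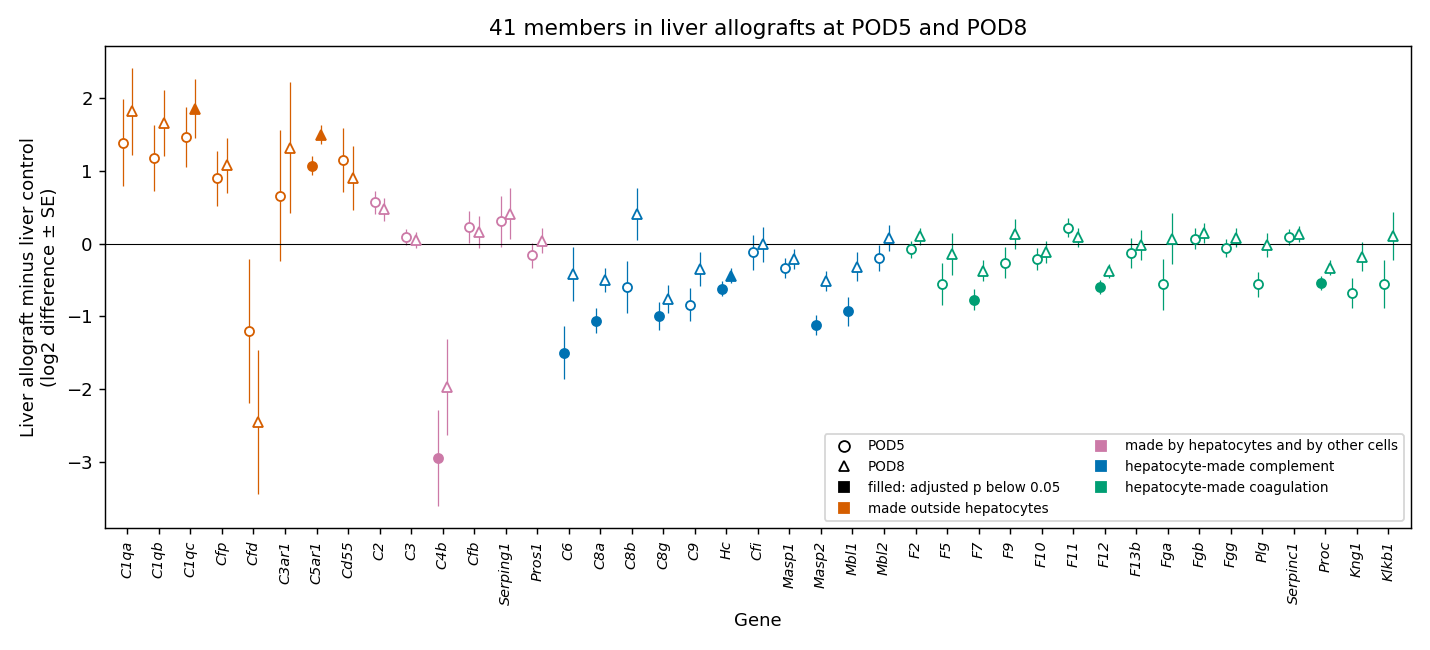
Log2 difference ± SE of all 41 members between liver allografts and liver controls, at POD5 (circles) and POD8 (triangles), coloured by site of synthesis and filled where called. The hepatocyte-made complement genes lie below 0 at POD5 and nearer to it at POD8, and C4b lies lowest at POD5 with -2.95.

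In the wider lists, the liver at POD5 had 3 complement genes higher and 2 lower of 24, and 8 coagulation genes higher and 2 lower of 27. The largest rises were in Itgax (3.5 ± 0.16, adjusted p = 0.000121), Procr (3.31 ± 0.3) and Plaur, the urokinase receptor (2.5 ± 0.46). The largest falls were in Colec10, a collectin of the lectin route (-1.55 ± 0.37, adjusted p = 0.0381), Vwf, von Willebrand factor (-1.28 ± 0.15), and Cd59a, which blocks the membrane attack complex (-0.97 ± 0.17). At POD8, 3 wider complement genes were higher and 1 lower of 24, and 4 coagulation genes higher and 0 lower of 27. Itgax, Procr and Itgb2 were the highest, with 4.02, 3.36 and 2.65, and Cd59a was the lower gene, with -0.73 (adjusted p = 0.0424). In the marker lists of the liver, T cell markers were higher in 5 of 6 at both times, and endothelial and neutrophil markers were called in 0 of 5 each. At POD5, 0 of 6 platelet and 0 of 5 fibroblast markers were called, and cardiomyocyte markers were higher in 1 and lower in 1 of 7. At POD8, 1 platelet marker (Ppbp) was higher, and 1 fibroblast (Dcn) and 1 cardiomyocyte marker (Tnnt2) were lower.

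The allograft difference at POD5 was then compared between the organs as an interaction in 1 fit of all arrays. Of 39 members tested, 9 had a higher difference in heart than in liver and 5 a lower one, against 8.53% and 9.47% of all probes. With scaling to the 75th percentile 22 were higher and 2 lower, and the median over all probes moved from 0.08 to 0.64. Of the 41006 probes tested, 13652 were then called higher and 3255 lower, in place of 3497 and 3885. C4b, higher in the heart allografts by 1.23 and lower in the liver allografts by 2.95, gave 4.12 ± 0.76 (adjusted p = 0.00447). Cfb gave 3.51 ± 0.39 (adjusted p = 0.000248), with 3.54 in heart and 0.23 in liver. C2 gave 1.78 ± 0.34 (adjusted p = 0.00501), with 2.22 and 0.57. F10 gave 2.5 ± 0.67 (adjusted p = 0.0252), with 2.23 in heart and -0.21 in liver, where its arrays read 15.11, 15.13 and 15.53 in the allografts and 15.31, 15.61 and 15.49 in the controls. Proc gave 1.39 ± 0.27 (adjusted p = 0.00563), from 5.54, 6.37 and 5.65 in the heart allografts against 4.84, 4.77 and 5.25, and from 15.19, 15.07 and 15.14 in the liver allografts against 15.64, 15.65 and 15.75.

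In the other direction, Cd55 fell in the heart and was higher in every liver allograft, which gave -2.53 ± 0.6 (adjusted p = 0.014). Cfi also gave -2.53 (SE 0.49, adjusted p = 0.00548), with -2.63 in heart and -0.12 in liver. Pros1 gave -0.71 ± 0.22 (adjusted p = 0.0424), with liver values of 11.2, 11.55 and 11.31 in the allografts and 11.31, 11.39 and 11.85 in the controls. This Pros1 call held in 6 of 19 other settings, and the second probe of the gene was not called (-0.4, adjusted p = 0.372). Fgg and Kng1 were also called lower (adjusted p = 0.000273 and 0.00818), but none of their heart allografts was above background, so that the difference has no measured size. For Kng1 it turned positive under the normexp correction and on its second probe, and was called in neither. The heart and liver grafts differed in donor and recipient strain as well as in organ, and these cannot be told apart. In the wider lists the largest interactions were C1rl (2.63), Cr2 (2.13) and Hrg (1.29) upward and F13a1 (-4.92), Vsig4 (-4.27) and Cfhr2 (-3.08) downward.

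**Figure D4:**
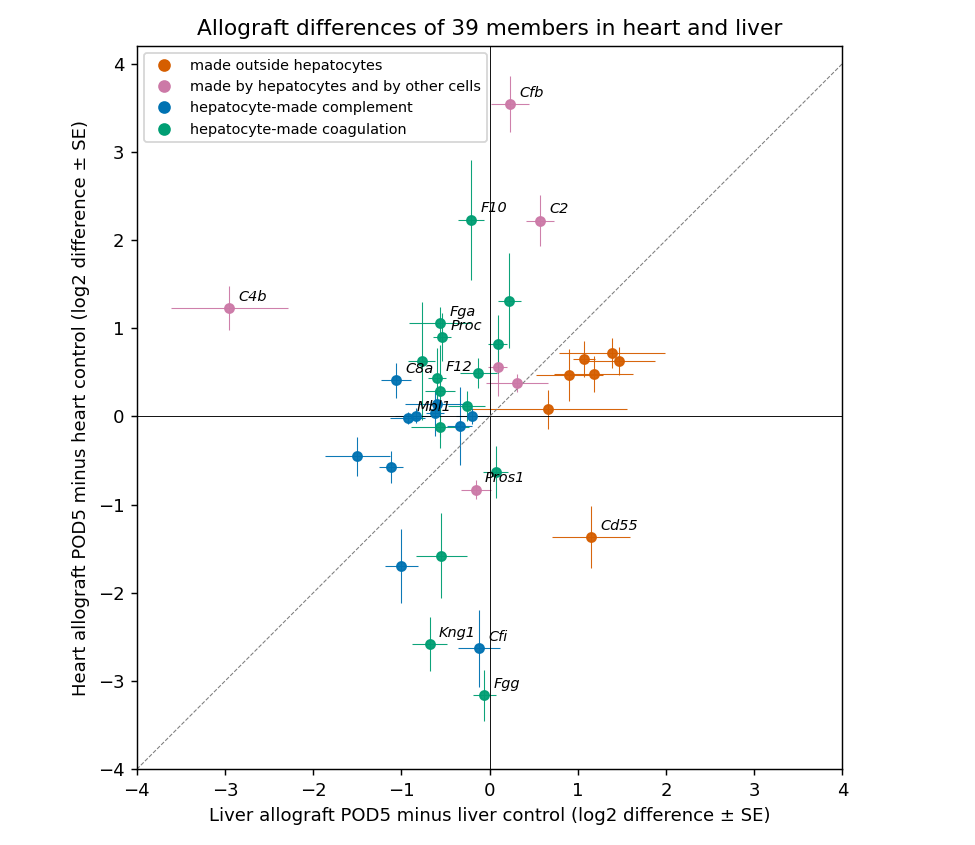
Log2 difference ± SE between allografts and controls at POD5 in liver (horizontal axis) and heart (vertical axis) for the 39 members tested in both, coloured by site of synthesis. The names mark the 14 members whose differences were called unequal, and the dashed line marks equal differences. Cfb, C2 and F10 lie high above the line, C4b lies far to its left, and Cd55, Cfi, Fgg and Kng1 lie below it.

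Probes of 1 gene disagreed in direction in several members. C3ar1 was not called on its brightest probe in the heart (0.08) and was lower on its second (-0.96 ± 0.21, adjusted p = 0.0221), and at liver POD8 the same probes gave 1.32 and -0.45, neither called. The heart values of C3ar1 on the brightest probe were 8.36, 8.12 and 8.55 in the allografts and 8.66, 7.99 and 8.12 in the controls, which overlapped. F9, factor IX, gave 0.12 on its brightest and -0.75 on its second heart probe (adjusted p = 0.0318), with brightest-probe values of 6.49, 7.06 and 6.71 against 6.51, 6.73 and 6.66. At liver POD8 the F9 probes gave 0.13 and -0.69, and neither was called.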

How the data were processed

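RNA of 15 mouse grafts and control organs was hybridized to single-colour arrays. The authors deposited linear spot intensities of the scanner software (Feature Extraction), background-subtracted by it, together with median signals of spot and background, without normalization between arrays. From these, spots with an outlier mark (47 to 113 per array, 0 saturated) were left out, log2 was taken, spots of a probe were averaged, and arrays were quantile normalized within an organ (over all 15 arrays for comparisons across organs). Of 41174 probes, 26690 (64.8%) were named through RefSeq accessions, and no coordinate of that table was used other than those of the printed promoters. Well above background means that a share of 0.5 or more of a probe's spots carried the software's mark. Where 1 group had no such array, a fold is a bound, "at least N-fold", set against the lowest signal among probes above background, and folds are left out where both groups lacked such arrays or the bound is under 1.

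limma 3.58.1 in R 4.3.3 (with version 1.17.8 of data.table) was fitted over all probes with Benjamini-Hochberg adjustment at 0.05 and tested on simulated data. limma was used in place of the study's standardized fold change (SFC), which is an alternative. The 3 arrays of a group limit the precision. The members and lists were chosen with earlier results of these data known. Named were the C1q chains, the 5 largest called members in each direction of each comparison, members whose probes disagreed, and the 3 largest called genes of the wider lists in each direction, of which 1 is not reported here. Genes described beyond this rule were chosen after their values were seen. The marker lists covered macrophages and monocytes, Kupffer cells, hepatocytes, adipocytes, platelets and megakaryocytes, fibroblasts, endothelial cells, cardiomyocytes, T cells and neutrophils. A normexp correction had been planned on mean signals and was run on median signals (offset 50). Figures were drawn with matplotlib in Python.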

Additional observations from a re-analysis of the deposited data

Results flagged for a closer look

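The heart and liver responses at POD5 differed, by the interaction test, in 14 members. The difference of the log2 differences, heart minus liver, was 4.12 for C4b, 3.51 for Cfb, 2.5 for F10, 1.78 for C2, 1.39 for Proc, 1.3 for C8a, 1.29 for Fga, 0.9 for F12 and 0.89 for Mbl1. It was -0.71 for Pros1, -1.61 for Kng1, -2.53 for Cd55, -2.53 for Cfi and -2.67 for Fgg. In C8a, F12 and Mbl1 the heart arrays were below background in both groups, so that their interactions had measured signal in the liver only. Fgg and Kng1 were below background on every heart allograft, and Fga on every heart array, so that their values are no measured sizes. For Fga the liver difference was not called (-0.56, adjusted p = 0.358).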

How the results depend on the processing

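The number of members called depended on the processing, and with the 75th percentile so did the balance of higher and lower calls. In the heart, 13 members were called. Scaling to the 75th percentile gave 24 (18 higher, 6 lower) and moved the median of all probes to 0.47, with 74.2% of called probes higher in place of 49%. Limma with Bonferroni adjustment gave 0 (19 at an unadjusted p under 0.05), and so did SFC. In the liver at POD5, 11 were called, and the other settings gave 3 with quantile normalization by phase, 18 (all lower) with the 75th percentile, where the median of all probes was -0.38 and 24.2% of called probes were higher in place of 58%, 0 with Bonferroni (20 unadjusted), 1 with SFC (C4b), 2 with the methods' t-test, and 6 with slide as a random block. In the liver at POD8, 3 were called, against 1 by phase, 5 with 1 fit over 15 arrays, 15 (13 lower) with the 75th percentile (median of all probes -0.46, 18.7% of called probes higher in place of 63.9%), 6 with normexp, 5 with a trended prior, 0 with Bonferroni (15 unadjusted), 1 with SFC (C4b), 8 with slide as a random block and 0 within slide 4, an alternative added after the data were seen. For the organ difference, 14 were called, against 24 with the 75th percentile (22 higher, median of all probes 0.64, 80.7% of called probes higher in place of 47.4%) and 2 with Bonferroni (Cfb and Fgg). Between control organs the 75th percentile moved the median of all probes to 0.76 and 68.5% of called probes were higher in place of 49%, with 38 members called as before. The cause of these shifts was not tested. At an unadjusted p under 0.05 with limma were 19 of 39 members and 18064 of 41025 probes in the heart. In the liver they were 20 of 41 and 10884 of 41155 at POD5, and 15 of 41 and 9566 of 41157 at POD8.

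Without 1 array in turn, the count ranged from 6 (without the third heart control) to 12 in the heart, 6 (without the first POD5 allograft) to 12 in the liver at POD5, 1 (without any 1 of the POD8 allografts) to 4 at POD8, 0 to 0 for POD8 against POD5, 11 to 13 for the organ difference and 38 to 39 between control organs. It was 7 without the first heart control and 7 without the second liver POD5 allograft. Of 687 planned repeats of the named members' differences, 538 kept direction and call, 148 kept direction only and 1 reversed, Kng1 in the organ difference under normexp (0.31). These were the largest called differences, so that the repeats say little about the direction of small ones.

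Arrays with the same replicate number did not deviate together (correlations of -0.14 to 0.05 over 12 pairs). With the number as a replicate block, 9, 7, 1, 0, 10 and 36 members were called in the heart, the liver at POD5, the liver at POD8, POD8 against POD5, the organ difference and the control organs.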
